A study of Mus musculus with 6 samples.

Results

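Counts of 9 genes of steroidogenesis and Leydig cells were examined, those of Star, Cyp11a1, Cyp17a1, Hsd3b1, Hsd3b6, Hsd17b3, Insl3, Lhcgr and Fdx1, out of 32285 genes counted in single-cell RNA sequencing libraries of the mouse testis. The 9 genes were chosen by name, and Hsd3b6 with its difference between the diets already known. The testes were those of C57BL/6N mice aged 8 weeks, called C57BL/6 wildtype in the labels, that had been fed a high-fat diet (HFD, 3 libraries) or a low-fat diet (LFD, 3 libraries) for 2 weeks, with no transgene in either group. Each library gives unique molecular identifiers (UMIs), which mark single captured RNA molecules, per gene and cell barcode, which stands for 1 droplet and usually 1 cell. The names of the deposited files give the opposite diet to the labels for all 6 libraries, so diets are those of the libraries' labels, and every difference between the diets below changes sign if the file names are right.

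Leydig cells lie between the seminiferous tubules and are the source of testicular testosterone. Luteinizing hormone, through its receptor Lhcgr, sets off the import of cholesterol into mitochondria by Star. There Cyp11a1, fed with electrons by the ferredoxin Fdx1, cuts the side chain off cholesterol to give pregnenolone, after which the dehydrogenase/isomerases Hsd3b1 and Hsd3b6, the lyase Cyp17a1 and the testis dehydrogenase Hsd17b3 complete the path to testosterone. Insl3 is a peptide hormone of Leydig cells that guides the descent of the testis, and Hsd3b6 is known as a mark of adult rather than fetal Leydig cells.

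The 6 libraries held 48939 barcodes and 429495465 UMIs, between 39196921 and 95845514 UMIs per library. Of 48654 distinct barcode strings, 284 occurred in more than 1 library, none of them among the Leydig-like barcodes described below. The replicate 1 libraries of both diets stood apart from the other 4, with haemoglobin RNA at 0.0209 CPM, the UMIs of a gene scaled to a common library total, in HFD replicate 1 and 0 in LFD replicate 1 against 30.5 to 99.7 CPM in the others, and diet values are therefore also given within these 2 sets of libraries. The study's methods give as many mice per diet as there are libraries, while the labels do not tie a library to an animal, and p-values measure the spread between these libraries.

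The members lie on 6 chromosomes of the GRCm38 build (GENCODE M21). Hsd3b6 (chr3:98805504-98814443, minus strand) and Hsd3b1 (chr3:98852194-98859794, minus strand) are neighbours in the Hsd3b cluster. Star lies at chr8:25806555-25815982 (plus strand), Cyp11a1 at chr9:58006411-58027023 (plus), Fdx1 at chr9:51943306-51963556 (minus), Cyp17a1 at chr19:46667165-46673172 (minus), Hsd17b3 at chr13:64058266-64089230 (minus), Lhcgr at chr17:88716481-88791990 (minus) and Insl3 at chr8:71689214-71690575 (plus). Of 9 members, 7 had an entry in the RefSeq table of start sites (GRCm38.p6), Star and Cyp17a1 being the ones without, and for 6 members the entry lay within 100 bases of the GENCODE start. The bases just upstream of the start are shown for the paired genes Hsd3b1 and Hsd3b6, whose relative level is the main contrast below, and for Insl3, a member found in all of the Leydig-like barcodes described below. They run 5′ to 3′ on the strand of the gene, in lower case, with capitals for 2 short motifs sought on both strands, CAAGGNC, the core bound by the steroidogenic factor Nr5a1, and AGATAA, bound by GATA factors.
Hsd3b1, chr3:98859795-98860044, minus strand: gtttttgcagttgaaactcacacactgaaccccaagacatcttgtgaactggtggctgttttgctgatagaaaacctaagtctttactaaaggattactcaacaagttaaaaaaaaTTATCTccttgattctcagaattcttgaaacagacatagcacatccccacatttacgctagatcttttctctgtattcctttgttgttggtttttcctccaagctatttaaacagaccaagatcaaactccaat
Hsd3b6, chr3:98814444-98814693, minus strand: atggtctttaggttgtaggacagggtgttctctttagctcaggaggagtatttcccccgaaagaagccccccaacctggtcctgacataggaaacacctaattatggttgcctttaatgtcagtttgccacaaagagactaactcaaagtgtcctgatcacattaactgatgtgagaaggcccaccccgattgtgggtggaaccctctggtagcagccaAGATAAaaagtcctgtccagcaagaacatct
Insl3, chr8:71689002-71689213, plus strand: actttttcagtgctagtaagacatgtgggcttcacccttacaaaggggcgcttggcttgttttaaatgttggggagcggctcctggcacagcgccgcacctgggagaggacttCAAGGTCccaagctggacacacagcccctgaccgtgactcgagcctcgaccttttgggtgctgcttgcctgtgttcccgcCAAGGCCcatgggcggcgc
The Insl3 window, which lies in an intron of Jak3, held 2 matches to CAAGGNC, of which the nearer one covered the bases 19 to 13 before the GENCODE start, and no match to AGATAA. The Hsd3b1 and Hsd3b6 windows each held 1 match to AGATAA, on the minus strand of the Hsd3b1 window and on the plus strand of the Hsd3b6 window, and none to CAAGGNC. Of 32851 RefSeq windows of 250 bases, 15.0% held CAAGGNC and 9.99% held AGATAA, so single matches of this kind are common.

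Sequence also decides how safely the members can be counted. The coding parts of Hsd3b6 and Hsd3b1 were identical at 1007 of 1119 aligned bases (90.0%), but of the 451 windows of 50 bases in the last 500 bases of the Hsd3b6 transcript, where this chemistry counts, 0 occurred in an Hsd3b1 transcript. The same part of Hsd3b6 shared 144 windows with Hsd3b2, 147 with Hsd3b3 and 25 with Hsd3b4, which counted 15, 0 and 0 UMIs in all 6 libraries. The split between Hsd3b6 and these 3 genes is therefore uncertain, whereas Hsd3b6 and Hsd3b1 had no such stretch in common. The 3′ exon of Insl3 (chr8:71690172-71690575, 404 of the gene's 623 exonic bases) is also an exon of the kinase gene Jak3 on the same strand, and reads within it cannot be assigned by position, which leaves Insl3 counts uncertain. Jak3 counted 7 UMIs in the Leydig-like barcodes and 1772 in all others. Cyp11a1 shares 145 exonic bases with the gene Gm17322, and the other 7 members share no exonic base with another gene.

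Only 11 of 48939 barcodes (0.0225%, exact 95% binomial interval 0.0112 to 0.0402%) expressed the members together. A barcode was called Leydig-like when at least 4 of the 8 members other than Fdx1 had a UMI and the 9 members gave at least 0.5% of its UMIs, thresholds that were set after the values were seen. HFD replicate 1 held 5 such barcodes, HFD replicates 2 and 3 held 2 each, LFD replicates 1 and 3 held 1 each, and LFD replicate 2 held 0. Their depth ran from 1278 to 23631 UMIs with a median of 7341, against a median of 2727 in the other barcodes, and 5 of the 11 had under 5000 UMIs. Members gave between 0.733% and 2.60% of their UMIs. The nearest barcode outside, in HFD replicate 1, had 3 of the 8 members and 0.259% of 2319 UMIs.

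The share rule set aside 4 barcodes of LFD replicate 2, with 262539 to 349605 UMIs and 12639 to 13383 genes each, in which the members gave 0.0327 to 0.0747% of UMIs. These 4 barcodes carried 88 Insl3, 67 Cyp11a1, 54 Cyp17a1, 26 Hsd3b6 and 4 Star UMIs, together with 142 to 195 UMIs of the Sertoli gene Clu in each, and 1.25% or less of their UMIs came from the protamines Prm1 and Prm2. Without the share rule they would be the only Leydig-like barcodes of that library, and results that turn on them are given both ways.

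The 11 barcodes fitted the Leydig label on genes that the gate did not use. Of 16 other Leydig markers, 11 had a level whose exact 95% Poisson interval in the pooled 11 barcodes lay above that in the other barcodes, against 10.5% of the 28384 genes detected. The kallikrein Klk1b24 stood at 368 CPM (265 to 498) against 0.0279 CPM elsewhere. Klk1b21 stood at 429 against 0.0536 CPM, Klk1b27 at 517 against 0.105 CPM and the angiotensin precursor Agt at 999 against 0.340 CPM. Klk1b27 was found in only 3 of the 11, with 46 of its 59 UMIs in the LFD replicate 3 barcode. Inhba, Rxfp2, Dlk1, Thbs2 and Cbr2 were at 0 of 114089 UMIs in the 11 barcodes, which allows up to 32.3 CPM and did not separate them. These intervals cover counting error only and treat the 11 barcodes, which came from 5 libraries, as 1 pool.

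Markers of other cells were then counted in the same 11 barcodes. All 5 endothelial and all 4 haemoglobin genes were at 0, as were 5 of 6 peritubular genes, with Actg2 at 1 UMI. Of 7 macrophage genes, Apoe, which many cell types make, had 254 UMIs and the other 6 had 0. Of 10 Sertoli genes, Sox9, Amh, Rhox5, Cldn11, Tsx and Defb36 were at 0, while Defb19 (382 UMIs), Clu (131), Ctsl (58) and Aard (7) were above the other barcodes, Defb19 in 10 of 11. The stromal genes Igfbp7, Dcn, Tcf21 and Col3a1 (4 of 7 listed) and the early germ cell genes Kit and Zbtb16 (2 of 9) were above the other barcodes as well. A count of 0 in the pool allows up to 32.3 CPM. Of the endothelial, haemoglobin, peritubular, macrophage and Sertoli genes at 0, only Cd74 was separated from the other barcodes, where it stood at 34.2 CPM. The summed Sertoli list gave 0 to 0.877% of the UMIs of a barcode, and its part in the member values was not tested. All 6 pachytene, 6 round spermatid and 5 elongating spermatid markers were below the other barcodes, as were 8.48% of all genes detected. Protamine RNA, the mark of elongating spermatids, gave 0.104 to 4.54% of the UMIs, most in the shallow barcodes, and its part in the member values was not tested.

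**Figure D1:**
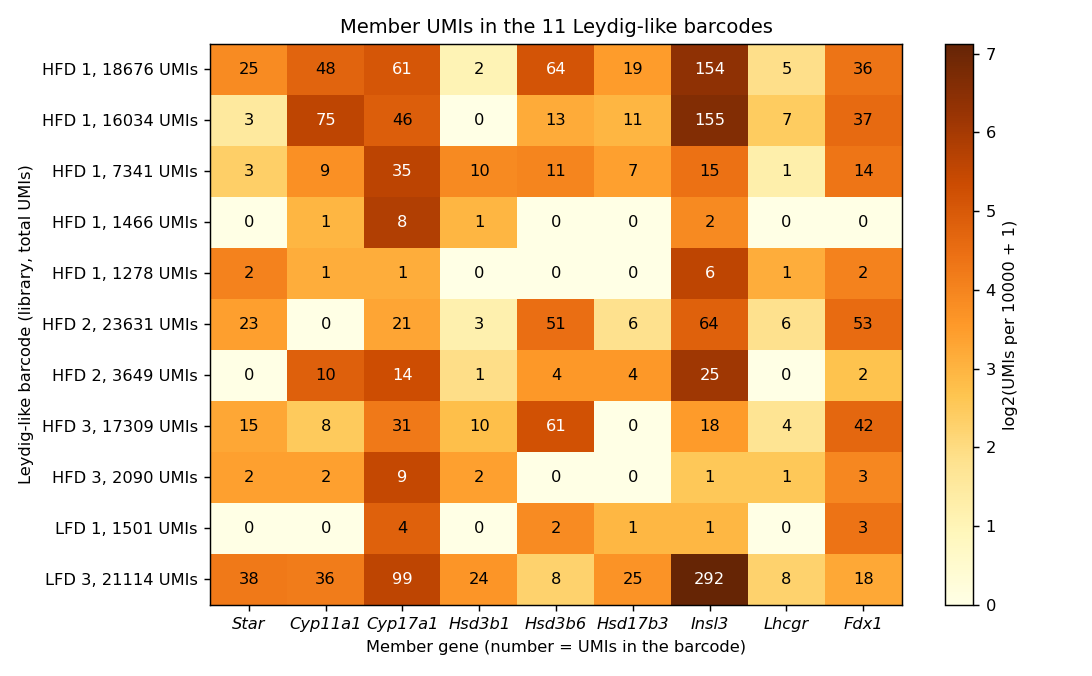
UMIs of the 9 members (columns) in each of the 11 Leydig-like barcodes (rows, with library and total UMIs). Numbers are UMIs and colour is log2 of UMIs per 10000 plus 1. The 6 barcodes of at least 5000 UMIs carried 7 or 8 members besides Fdx1, and Insl3 ran from 15 to 292 UMIs among them.

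Within the Leydig-like barcodes the members varied widely. The 6 barcodes with at least 5000 UMIs came from HFD replicate 1 (18676, 16034 and 7341 UMIs), HFD replicate 2 (23631), HFD replicate 3 (17309) and LFD replicate 3 (21114), and values below are given in that order. The heat map of member UMIs shows all 11 barcodes.

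Star, the carrier that brings cholesterol into mitochondria, counted 25, 3, 3, 23, 15 and 38 UMIs, or 1.87 to 18.0 per 10000 UMIs. Cyp11a1, the side-chain cleavage enzyme, counted 48, 75, 9, 0, 8 and 36 UMIs. The HFD replicate 2 barcode thus held no Cyp11a1 in 23631 UMIs, which allows up to 1.27 per 10000 (3 UMIs taken as the limit for a count of 0 in a single barcode), where the 16034-UMI barcode of HFD replicate 1 reached 46.8 per 10000. Fdx1, which hands electrons to Cyp11a1, was present in all 6, with 36, 37, 14, 53, 42 and 18 UMIs, or 8.53 to 24.3 per 10000.

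Cyp17a1, which carries steroids from the pregnane to the androgen series, was found in all 11 barcodes and counted 61, 46, 35, 21, 31 and 99 UMIs in the 6 deep ones. Hsd17b3, the last step to testosterone, counted 19, 11, 7, 6, 0 and 25 UMIs. The count of 0 in the HFD replicate 3 barcode allows up to 1.73 per 10000, and that library's only Hsd17b3 UMI lay in a barcode outside the gate. Lhcgr, the receptor for luteinizing hormone, was found in all 6, at 5, 7, 1, 6, 4 and 8 UMIs. Insl3 was likewise found in all 11 barcodes and spanned a wide range, with 154, 155, 15, 64, 18 and 292 UMIs, or 10.4 to 138 per 10000.

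How much of each member lay in the Leydig-like barcodes differed between members. Pooled over the 6 libraries, the 11 barcodes held 733 of 830 Insl3 UMIs (88.3%, exact interval 85.9 to 90.4%), 214 of 250 Hsd3b6 UMIs (85.6%, 80.6 to 89.7%) and 329 of 417 Cyp17a1 UMIs (78.9%, 74.7 to 82.7%). They held 53 of 71 Hsd3b1 UMIs (74.6%) and 73 of 100 Hsd17b3 UMIs (73.0%). The other members were spread more widely, with 42.7% of Cyp11a1, 29.2% of Lhcgr, 9.21% of Star and 0.294% of Fdx1 UMIs in these barcodes. A further gate did not count the member in question among the 4 needed, but kept its UMIs in the 0.5% rule. Fdx1 was never counted, so its gate was unchanged. This gate left these pooled shares within 3 percentage points for every member, for instance 84.8% for Hsd3b6 and 76.0% for Cyp17a1. The mean of the 6 libraries' own shares moved more, from 82.7 to 65.9% for Insl3, from 74.2 to 63.1% for Hsd3b6 and from 65.7 to 59.7% for Cyp17a1, because the share of LFD replicate 1, whose 1 barcode then left the gate, fell to 0 for all 3. Without the share rule, which adds the 4 deep barcodes of LFD replicate 2, the shares rose to 98.9% for Insl3, 96.0% for Hsd3b6, 91.8% for Cyp17a1 and 57.8% for Cyp11a1.

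In levels, Insl3 stood at 6425 CPM in the Leydig-like barcodes (exact 95% interval 5968 to 6907) and 0.226 CPM in the others. Hsd3b6 stood at 1876 CPM (1633 to 2145) against 0.0838 CPM, and Cyp17a1 at 2884 CPM (2580 to 3213) against 0.205 CPM. Since these genes chose the barcodes, the difference is a description. Fdx1 differed least, at 1841 CPM (1600 to 2107) against 166 CPM (165 to 167), and 23148 of the 48928 other barcodes had at least 1 Fdx1 UMI.

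Outside the Leydig-like barcodes, and leaving out 17 barcodes of 200000 UMIs or more, Insl3 counted 9 UMIs in 9 barcodes, Hsd3b6 10 UMIs in 10 and Hsd3b1 14 UMIs in 14. Hsd17b3 counted 21 UMIs in 20 barcodes, Cyp17a1 34 in 32 and Lhcgr 76 in 73. Nearly all of these were single UMIs. Cyp11a1, with 187 UMIs in 173 barcodes, and Star, with 1088 UMIs in 951 barcodes, were more frequent, and their distribution over cell classes is given next.

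Barcodes outside the gate were sorted by marker genes other than the members. Sertoli-like (498 barcodes), macrophage-like (238), peritubular or stromal-like (154), spermatogonia or early spermatocyte-like (886), round spermatid-like (3514) and elongating spermatid-like (2992) barcodes were distinguished. A further class of 1352 barcodes with high Piwil1, an Argonaute protein of meiotic germ cells, is called Piwil1-high here, because of the 6 pachytene markers listed 3 (Piwil1, Sycp1 and Hspa2) were higher in it than in round spermatid-like barcodes and 3 (Pgam2, Ccna1 and Spag6) were lower. The other barcodes, mostly under 5000 UMIs, were left unsorted.

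Star was read in germ cells at a low level, higher in the Piwil1-high than in the round spermatid-like class. In the Piwil1-high barcodes its level was 1.87, 5.24 and 4.73 CPM in HFD replicates 1 to 3 and 2.08, 5.08 and 8.07 CPM in LFD replicates 1 to 3. In round spermatid-like barcodes it was 0.316, 0.174 and 0.286 CPM in the HFD libraries and 0.0386, 0.260 and 0.242 CPM in the LFD libraries. The Piwil1-high level was the higher in each of the 6 libraries and the 2 sets of values did not overlap. The log2 difference was 3.79 (SE 0.33, adjusted p = 9.5e-07, edgeR quasi-likelihood test with the library as a block, Benjamini-Hochberg over 15113 genes), in a fit chosen after these levels were seen, and 91.1% of the genes tested passed in it. Insl3 counted 0 UMIs in both classes, and the part of Leydig cell RNA in the 193 Star UMIs of the Piwil1-high barcodes was not tested.

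The level was not particular to the Piwil1-high class. Unsorted barcodes held most Star UMIs outside the gate, 425 at 4.82 CPM in those under 5000 UMIs (1.25 to 17.8 CPM over the libraries) and 350 at 3.93 CPM in deeper ones (1.40 to 9.22 CPM), where the pooled Piwil1-high level was 3.71 CPM. In the spermatogonia or early spermatocyte-like barcodes Star ranged from 2.68 to 12.6 CPM over the libraries, which overlapped the Piwil1-high range. In Sertoli-like barcodes 24 UMIs gave 0 to 18.4 CPM. Macrophage-like barcodes held 0 Star UMIs, with an exact upper bound of 3.97 CPM, and the elongating spermatid-like barcodes held 9 Star UMIs in 49028050 (0.184 CPM). Median depth was 31899.5 UMIs in Piwil1-high and 34911 in round spermatid-like barcodes, mitochondrial transcripts gave a median of 3.23% and 0.0664% of UMIs in them, and the part of these differences in the Star values was not tested.

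Cyp11a1 showed the opposite order in germ cells. Round spermatid-like barcodes held 103 Cyp11a1 UMIs in 92 barcodes, at 0.773, 0.607 and 1.09 CPM in HFD replicates 1 to 3 and 0.812, 0.584 and 0.847 CPM in LFD replicates 1 to 3. Piwil1-high barcodes held 3 UMIs in all, 0 in 4 of the 6 libraries. Elongating spermatid-like barcodes lay between them, at 0.310 to 0.479 CPM over the libraries, below every round spermatid-like value. Cyp11a1 was too low to be kept by the filter of the fit used for Star. Without that filter its log2 difference, Piwil1-high minus round spermatid-like, was -3.95 (SE 0.63, adjusted p = 4.5e-05, edgeR). DESeq2 gave -4.21 (SE 0.99, adjusted p = 3.5e-05). These fits were also chosen after the levels were seen, and 16920 and 16457 of 26399 genes passed in them. Fdx1, its electron donor, was abundant in both, at 232 to 289 CPM in Piwil1-high, 119 to 136 CPM in round spermatid-like and 25.2 to 42.9 CPM in elongating spermatid-like barcodes. The Fdx1 ranges of these 3 classes did not overlap. In the fit used for Star, the log2 difference between the first 2 was 0.64 (SE 0.07, adjusted p = 5.3e-06, edgeR), beside a median of -0.14 over all genes.

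**Figure D2:**
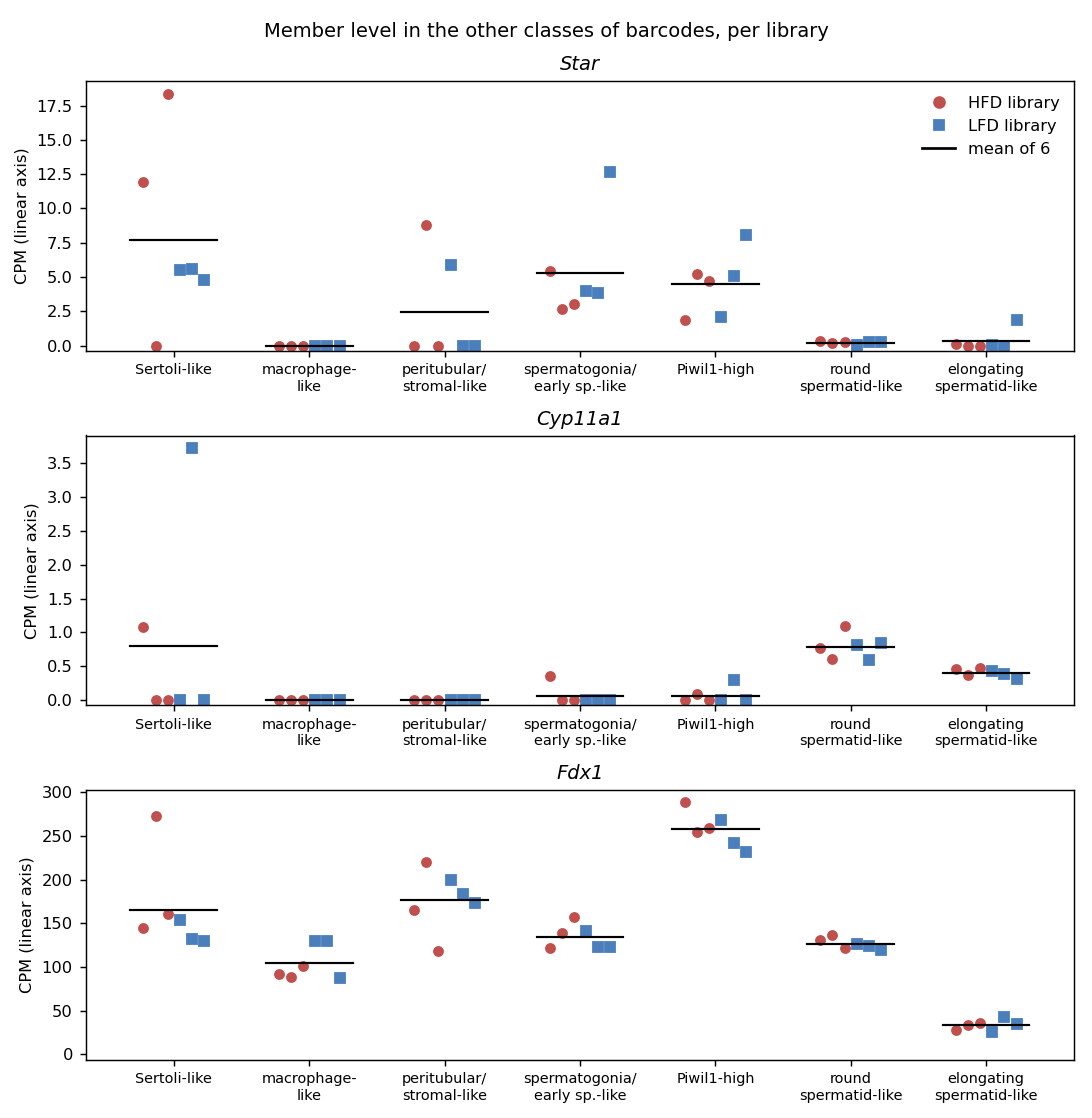
Level (CPM, linear axes) of Star, Cyp11a1 and Fdx1 in 7 classes of barcodes outside the Leydig-like gate. Each point is 1 library (red circles HFD, blue squares LFD) and lines are means of 6 libraries. Star lay at 1.87 to 8.07 CPM in Piwil1-high and 0.0386 to 0.316 CPM in round spermatid-like barcodes, and Cyp11a1 at 0 to 0.299 and 0.584 to 1.09 CPM.

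Other genes of the pathway were also high in the Leydig-like barcodes. Of 6 electron donor genes, 5 had intervals above the other barcodes, led by Fdxr, the reductase that feeds Fdx1, at 543 CPM (417 to 697) against 4.56 CPM. Cyb5a, which aids the lyase step of Cyp17a1, stood at 394 against 25.9 CPM, Por, the reductase of microsomal P450 enzymes, at 87.7 against 7.15 CPM, and Cyb5r3 at 254 against 23.4 CPM. Of 18 cholesterol supply genes, 12 were above and 1, Lipe, was below. The cholesterol exporter Abca1 stood at 535 against 1.70 CPM, the outer-membrane protein Tspo at 412 against 2.01 CPM and the channel Vdac1 at 210 against 2.47 CPM. The share above was 10.5% among all genes detected and 13.3% among genes of at least 100 UMIs.

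Of 16 other steroid enzymes, 7 were above and the other 9 were at 0 in the 11 barcodes. Akr1cl, an aldo-keto reductase, had 672 UMIs in 9 barcodes (5890 against 1.13 CPM), and the estrogen sulfotransferase Sult1e1 had 30 UMIs in 4 (263 against 0.0116 CPM). Hsd11b1 and Akr1c14 rested on 2 and 1 UMIs. Aromatase (Cyp19a1) and both adrenal enzymes Cyp11b1 and Cyp21a1 were at 0 in 114089 UMIs. A count of 0 in this pool allows up to 32.3 CPM. These genes stood at 1.40, 2.91 and 0.205 CPM in the other barcodes, so none of them was separated. Within the Hsd3b family, Hsd3b2, Hsd3b3, Hsd3b4 and Hsd3b5 were at 0 and Hsd3b7, which acts in bile acid synthesis, had 3 UMIs. Of 20 regulators and receptors, 11 were above, among them the prolactin receptor Prlr (1166 against 0.114 CPM), Nr5a1 (123 against 0.415 CPM), the transcription factor Cebpb (438 against 1.52 CPM) and the estrogen receptor Esr1 (131 against 0.522 CPM).

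Among 19328 genes with at least 100 UMIs, those most confined to the Leydig-like barcodes were ranked by the share of their UMIs in these barcodes, averaged over libraries. The members are left out of this order, since they chose the barcodes. The 10 leading non-member genes were Bhmt (65.0%), Prlr (63.6%), Lrg1 (57.8%), Akr1cl (52.6%), Ephx1 (45.9%), Lcn2 (43.5%), Agt (39.5%), Vcam1 (37.7%), Mt3 (32.9%) and Cstdc2 (30.8%). The mean of Lrg1 was over 4 libraries and those of the others over 6, so its place in this order is not like for like. Some of these genes rested on few barcodes. Lrg1 UMIs were found in 4 and Cstdc2 UMIs in 3 of the 11, while Lcn2 was found in all 11 and Vcam1 and Ephx1 in 10. In all, 77 genes had a mean share of 10% or more and 20 genes one of 25% or more.

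Hsd3b6 and Hsd3b1 carry out the same step, and their ratio differed from barcode to barcode. The 18676-UMI barcode of HFD replicate 1 held 64 Hsd3b6 and 2 Hsd3b1 UMIs, a share of Hsd3b6 of 97.0% (exact interval 89.5 to 99.6%). The 7341-UMI barcode of the same library held 11 and 10 UMIs, or 52.4% (29.8 to 74.3%), so that 2 barcodes of 1 library differed beyond counting error. The deep barcodes of HFD replicates 2 and 3 held 51 against 3 and 61 against 10 UMIs, or 94.4% and 85.9%, and the 16034-UMI barcode of HFD replicate 1 held 13 and 0. The one Leydig-like barcode of LFD replicate 3 held 8 Hsd3b6 and 24 Hsd3b1 UMIs (exact interval 11.5 to 43.4%), the lowest share among Leydig-like barcodes with more than 2 UMIs of the pair. The 4 barcodes of LFD replicate 2 outside the gate held 9 and 2, 2 and 1, 3 and 0, and 12 and 1 UMIs of Hsd3b6 and Hsd3b1, or 66.7 to 100% Hsd3b6.

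**Figure D3:**
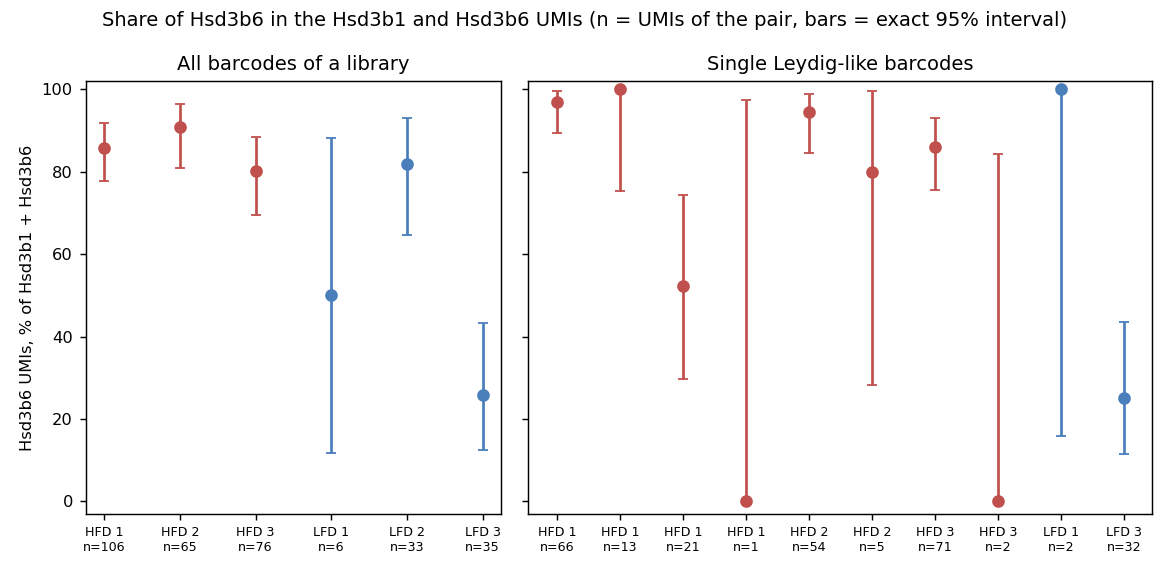
Hsd3b6 UMIs as a percentage of Hsd3b1 plus Hsd3b6 UMIs, in all barcodes of each library (left) and in the 10 single Leydig-like barcodes with a UMI of either (right). Points are shares, bars exact 95% binomial intervals and n the UMIs of the pair, with HFD in red and LFD in blue. Shares ran from 25.7% to 90.8% over libraries and from 0 to 100% over barcodes, with the widest intervals at n of 1 or 2.

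Over whole libraries, Hsd3b6 made up 85.8% of the pair in HFD replicate 1 (exact interval 77.7 to 91.9%), 90.8% in HFD replicate 2 (81.0 to 96.5%) and 80.3% in HFD replicate 3 (69.5 to 88.5%). It made up 3 of 6 UMIs in LFD replicate 1 (11.8 to 88.2%), 81.8% in LFD replicate 2 (64.5 to 93.0%) and 25.7% in LFD replicate 3 (12.5 to 43.3%). The LFD libraries thus spread over most of the scale, and LFD replicate 2 lay within the HFD range. The mean was 85.6% ± 5.26 (SD, n = 3) for HFD and 52.5% ± 28.1 (SD, n = 3) for LFD. No test was made of this share or of Hsd3b6, because Hsd3b6 was chosen with its diet difference known. The value of LFD replicate 2 rested mostly on the 4 deep barcodes and that of LFD replicate 3 on 1 barcode.

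The second question was whether the diets differed in the members over the whole testis, with the UMI sum of a library as the replicate. In such sums, fewer cells of a type and less RNA per cell cannot be told apart. None of the 8 members other than Hsd3b6 passed an adjusted p of 0.05 (edgeR quasi-likelihood test, Benjamini-Hochberg over 20727 genes), none had an unadjusted p under 0.05 by edgeR or DESeq2, and 0 of the 20727 genes (0.0%) were called. Over all genes, 471 by edgeR and 444 by DESeq2 had an unadjusted p under 0.05, and DESeq2 called 0.

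Star stood at 1.43, 2.79 and 3.22 CPM in HFD replicates 1 to 3 and 1.23, 3.20 and 7.88 CPM in LFD replicates 1 to 3, so the groups overlapped (log2 change -0.64, SE 0.53, adjusted p = 0.99, edgeR). Insl3 spanned a far wider range within each diet, at 3.52, 1.12 and 0.282 CPM for HFD and 0.0130, 1.29 and 7.48 CPM for LFD. Of the 293 Insl3 UMIs of LFD replicate 3, 292 came from 1 barcode. Its log2 change was -0.66 (SE 1.18), an error larger than the change. The other log2 changes were 0.048 (SE 0.53) for Cyp11a1, -0.17 (SE 0.74) for Cyp17a1, -0.54 (SE 0.87) for Hsd3b1, -0.41 (SE 0.88) for Hsd17b3, -0.53 (SE 0.77) for Lhcgr and 0.18 (SE 0.14) for Fdx1, with adjusted p from 0.99 to 1.00 by edgeR.

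Hsd3b6 was the member whose libraries did not overlap, as its choice implies, which 1.79% of genes tested did in the same direction and 6.68% in either. It stood at 0.949, 0.729 and 0.905 CPM (91, 59 and 61 UMIs) in HFD replicates 1 to 3. In LFD replicates 1 to 3 it stood at 0.0390, 0.391 and 0.230 CPM (3, 27 and 9 UMIs), a log2 change of 2.06. These UMIs came from very few barcodes. In HFD replicate 3 all 61 UMIs lay in 1 barcode, in HFD replicate 1 the leading barcode held 64 of 91 and in HFD replicate 2 it held 51 of 59. In LFD replicates 1 to 3 the leading barcode held 2 of 3, 12 of 27 and 8 of 9 UMIs.

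Once the leading Hsd3b6 barcode of each library was left out, the diets overlapped, at 0.282, 0.0989 and 0 CPM for HFD and 0.0130, 0.218 and 0.0255 CPM for LFD (0.127 ± 0.143 against 0.0855 ± 0.115 CPM, SD, n = 3). Hsd3b6 then no longer passed the filter on low counts, and no fitted change is given. Outside the Leydig-like barcodes Hsd3b6 was at 0.0313, 0.0494 and 0 CPM in the HFD libraries and 0.0130, 0.391 and 0.0255 CPM in the LFD libraries, where 26 of the 27 UMIs of LFD replicate 2 lay in the 4 deep barcodes. Since these barcodes were picked by their Hsd3b6 count, and HFD replicate 3 had no other Hsd3b6 UMI, the overlap without them is a description of how few barcodes carried the gene.

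**Figure D4:**
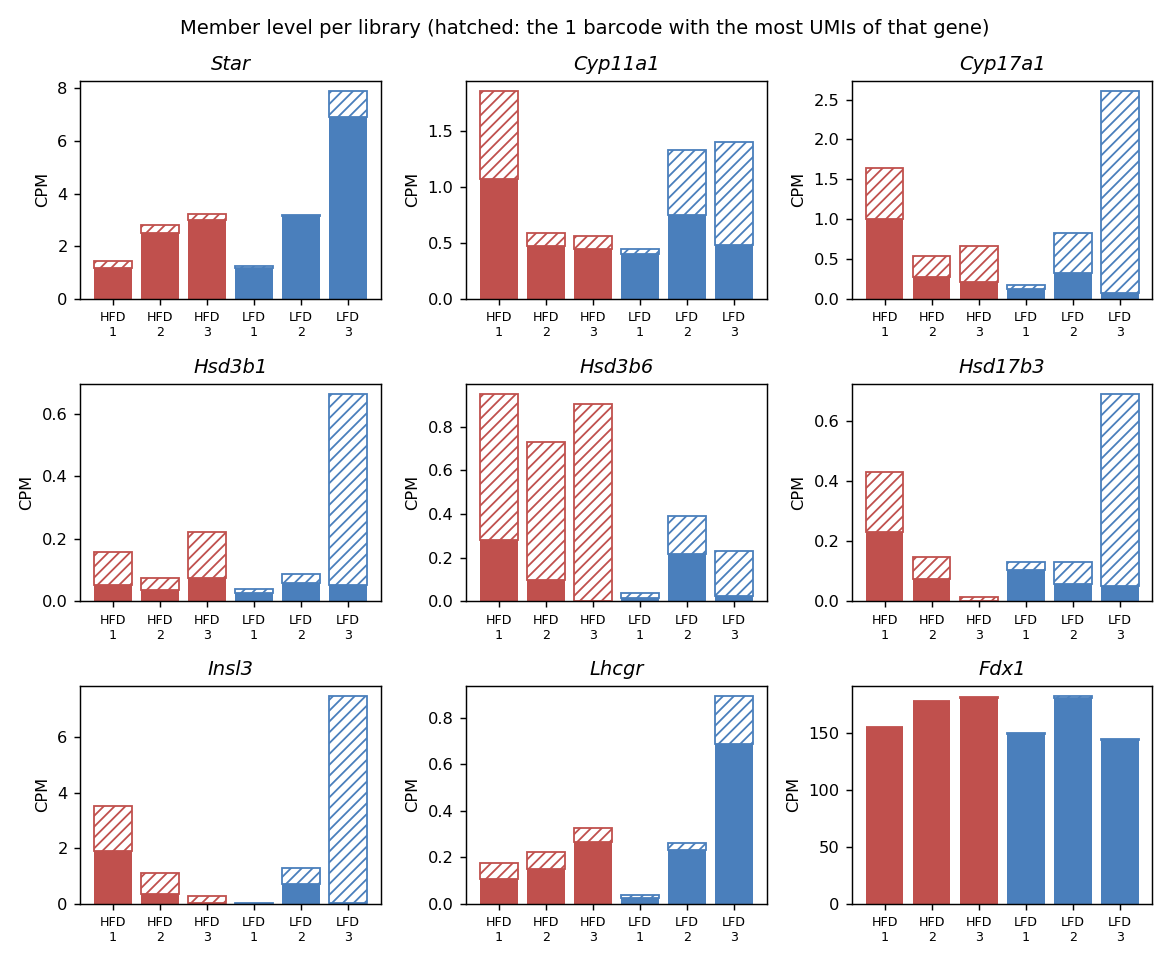
Level of each member (CPM of the whole library, linear axes from 0) in the 6 libraries, HFD in red and LFD in blue. The hatched part of a bar is the contribution of the 1 barcode with the most UMIs of that gene. That barcode gave 44.4 to 100% of Hsd3b6 and 44.9 to 100% of Insl3 UMIs, but 0.374 to 0.687% of Fdx1 UMIs.

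Leydig-like barcodes were rare in both diets. As a share of all barcodes they made up 0.0503, 0.0246 and 0.0270% in HFD replicates 1 to 3 and 0.0151, 0 and 0.0174% in LFD replicates 1 to 3, where 0 of 11095 barcodes in LFD replicate 2 has an exact upper bound of 0.0332%. Another gate left Hsd3b6 out of the count of members, though not out of the 0.5% rule. Its counts were 5, 2 and 2 against 0, 0 and 1, and the mean shares were 0.0340% ± 0.0142 and 0.00579% ± 0.0100 (SD, n = 3). An exact permutation test, two-sided, gave p = 0.1, the smallest that 3 against 3 libraries allow. The barcodes of this gate held 84.8% of the UMIs of Hsd3b6, which was chosen with its diet difference known. The thresholds were also set after the values were seen, so the test is not separate from that choice. Without the share rule the 4 deep barcodes made LFD replicate 2 the second highest library at 0.0361%, the counts were 9 against 6 and the diets overlapped.

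The 2 sets of libraries gave opposite directions for most members. Between the replicate 1 libraries, all 9 members were higher in the HFD library, and 1 library each allows no test. Log2 ratios were 4.61 for Hsd3b6, 8.08 for Insl3, 3.28 for Cyp17a1 and 2.07 for Cyp11a1. In that order, these rested on 91, 337, 157 and 178 UMIs in HFD replicate 1 and 3, 1, 13 and 34 in LFD replicate 1. The size of these ratios is therefore uncertain. Between replicates 2 and 3, 7 of the 9 were lower in HFD, with log2 ratios of the mean CPM of -2.64 for Insl3, -2.33 for Hsd17b3, -1.52 for Cyp17a1 and -1.24 for Cyp11a1, while Hsd3b6 (1.40) and Fdx1 (0.14) were higher. An edgeR fit of these 4 libraries alone, added after the data were seen, called 93 of 20822 genes, all lower in HFD, and 0 of the 8 members (5 with an unadjusted p under 0.05, beside 2548 of all genes), with adjusted p from 0.093 for Cyp11a1 to 0.72 for Fdx1. A fit of all 6 libraries with a term for the replicate 1 libraries, a split drawn from these data, called 0 genes. The log2 change of Star in it was -0.47 (SE 0.30, adjusted p = 0.78, edgeR).

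The other genes of the pathway did not separate the diets either. None of the 6 electron donors, 18 cholesterol supply genes, 8 other steroid enzymes, 19 regulators and 9 other Leydig markers tested was called, with median log2 changes of 0.039, -0.073, 0.11, -0.11 and -0.26 beside 0.024 over all genes. The 10 Sertoli markers had a median of -0.67, also with 0 called.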

How the data were processed

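Testes were dissociated with collagenase IV, trypsin and DNase and passed through a 40-µm filter, and 10000 cells were targeted per library on the 10x Genomics platform. The labels name version 2 of the kit and the study's methods a later one, and the kit version is not settled here. The authors aligned reads to mm10 with Cell Ranger 6.0.1 and deposited raw UMI counts per gene and barcode for 6 libraries, not normalized. Groups are those of the sample titles.

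The members and all lists were chosen with earlier results of these data known. The study's filter (200 to 40000 genes) removed 0 of 48939 barcodes, and doublets were kept. Scrublet scores (scanpy 1.11.5) served as an alternative. Counts were summed per library and tested with edgeR 4.0.16 (R 4.3.3, quasi-likelihood test, TMM, default filter on low counts, calls at an adjusted p under 0.05), with DESeq2 1.42.0 as an alternative. Both were tested on simulated data in which only genes above the level of every member but Fdx1 changed. Power for the other members was therefore not tested. The simulated libraries had a fixed spread for all genes and no shift of the replicate 1 libraries. Power at the spread of these data was thus not tested for Fdx1 either. Intervals are exact at 95% (scipy 1.17.1), cover counting error only, and read UMIs of a pool as 1 sample. An SE given with edgeR is the size of the log2 change divided by the square root of its F statistic.

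Outside the Leydig-like gate, classes needed at least 3 Sertoli, macrophage, or peritubular and stromal markers with 0.3% of UMIs, 4 early germ cell markers with 0.15%, or elongating markers with 10%. Of the remaining barcodes of at least 5000 UMIs, Piwil1-high ones had at least 4 Piwil1 UMIs per 10000 and 4 listed markers, and round spermatid-like ones under 2 per 10000 and 0.2% from round spermatid markers. Barcodes in several gates were set aside.

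A fit of Leydig-like against other barcodes within libraries was planned for libraries with at least 5 Leydig-like barcodes and was not run, since 1 library had that many. List genes were therefore named, up to 4 per list, by the ratio of pooled levels among those with intervals apart (1 such gene is not reported here), and genes most like the members by their mean share of UMIs in Leydig-like barcodes (at least 100 UMIs). Replicate numbers did not pair the libraries (correlations of same-numbered deviations 0.50, -0.05 and 0.18). Coordinates and transcripts are from GENCODE M21 and start-site windows from RefSeq GRCm38.p6, aligned with Biopython 1.88.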

Additional observations from a re-analysis of the deposited data

How the results depend on the processing

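Over 240 recomputed values, 219 kept their direction and their side of the threshold or moved by less than the spread between libraries. Counts of genes or members were taken as kept if they stayed within a set ratio of the main count. Of the 219, 109 were member changes. Those of members other than Hsd3b6 had only to keep their direction and stay uncalled, so the tally says little about their size. The number of genes called between the diets in the whole testis was 0 in the report, 0 to 2 with 1 library left out, 24 with the replicate number as a block (1 higher and 23 lower in HFD) and 93 in the libraries of replicates 2 and 3, and 0 in every other fit listed in this part. Hsd3b6 was not tested, and none of the 8 other members was called in any of these fits, block included. The filter left 7 of the 8 tested without the highest Scrublet scores and 6 without the leading Hsd3b6 barcodes. It left 4 without the Leydig-like and the 4 deep LFD barcodes, and a member that was filtered out could not be called. Of 126 refitted member changes, 17 reversed, none of them called before or after. Cyp11a1 reversed to -0.10 with the replicate block, -0.092 with the term for the replicate 1 libraries and -1.21 in replicates 2 and 3. Cyp17a1 reversed to 0.052 with the replicate block and 1.57 without the leading Hsd3b6 barcodes, which also reversed Insl3 to 1.67. With 1 library left out, log2 changes ran from -1.07 to 0.15 for Star, -0.86 to 0.33 for Cyp11a1, -0.92 to 0.99 for Cyp17a1, -1.12 to 1.24 for Hsd3b1, -1.72 to 0.66 for Hsd17b3, -1.96 to 1.43 for Insl3, -1.12 to 0.70 for Lhcgr, 1.52 to 2.93 for Hsd3b6 and 0.039 (without LFD replicate 3) to 0.27 (without LFD replicate 2) for Fdx1. The highest value of Star, Cyp17a1, Hsd3b1, Hsd17b3, Insl3 and Lhcgr came without LFD replicate 3 and the lowest of Cyp11a1 without HFD replicate 1. The count of 2 genes came without HFD replicate 1. The cause was not tested.

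The difference in the share of Leydig-like barcodes (0.0232 percentage points, HFD minus LFD) was 0.0150 to 0.0279 with 1 library left out. Without the share rule it was much smaller, at 0.0111, though counted as kept above. The difference in the Hsd3b6 share of the pair (33.1 points) was 19.7 to 47.8 with 1 library left out. The mean share of Fdx1 UMIs in Leydig-like barcodes moved from 0.281% to 0.646% without the share rule. The alternatives without the share rule, without the leading or the Leydig-like barcodes, within replicates 2 and 3 and between germ cell classes were chosen after seeing the data. The log2 differences between Piwil1-high and round spermatid-like barcodes were 3.62 to 4.19 for Star and 0.58 to 0.68 for Fdx1 with 1 library left out. Size factors from DESeq2 moved the median of all genes in that fit from -0.14 to -0.31 and the Fdx1 difference to 0.48, below that range. DESeq2 itself gave 0.45 for Fdx1. For Star these 2 alternatives gave 3.62 and 3.71. The planned fit of Leydig-like against other barcodes and its alternatives were not run. With 11 Leydig-like barcodes, 5 of them under 5000 UMIs, differences between the diets within these cells were not tested.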

Other observations

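Lcn2, which codes for the siderophore-binding protein lipocalin 2, gave 1257 UMIs in the 11 Leydig-like barcodes. The 2 deepest barcodes of HFD replicate 1 held 675 and 237 Lcn2 UMIs and LFD replicate 3 held 207. The deep barcodes of HFD replicates 2 and 3 held 3 and 7. The 3649-UMI barcode of HFD replicate 2 held 70, more for its depth than the barcodes with 237 and 207. The 1466-UMI and 1278-UMI barcodes of HFD replicate 1 held 14 and 13. Lrg1, a secreted leucine-rich glycoprotein, had 70, 27 and 17 UMIs in the 3 barcodes with the most Lcn2 UMIs. It was at 0 in the other deep ones and at 1 UMI in the LFD replicate 1 barcode. Bhmt, betaine-homocysteine methyltransferase, ran the other way in part, with 117 UMIs in the HFD replicate 2 barcode against 63, 23 and 33 in those 3. These values are single barcodes and carry no test.

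The long non-coding RNA Malat1 counted 32 UMIs in the 18676-UMI barcode of HFD replicate 1, 578 in its 16034-UMI barcode, 109 in its 7341-UMI barcode, 121 in the deep barcode of HFD replicate 3, 1711 in the deep barcode of HFD replicate 2 and 1130 in that of LFD replicate 3. Mitochondrial transcripts gave 6.59 to 9.90% of UMIs in the 6 deep Leydig-like barcodes and 0.0682 to 5.41% in the 5 shallow ones.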
